A study of Homo sapiens with 3 samples.

Results

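The 26 integrin genes and 11 laminin genes described here were 37 of the 19856 protein-coding genes with a canonical transcription start site (TSS) in GENCODE release 44 on the hg19 build of the human genome. They were taken from a list of named genes, and 37 of 37 were found in the annotation, on 15 chromosomes. The choice followed no measured value, but earlier results of these data were known when it was made. ETS1 occupancy had been mapped by chromatin immunoprecipitation and sequencing in untreated SCC25 cells, an established line of squamous carcinoma cells from the tongue, with 2 immunoprecipitations by the C20 antibody and 1 by the 501A antibody. The 3 samples were represented by a single consensus list of 26970 peaks, of which the 26961 on nuclear chromosomes were used. The list held positions and no score, summit or value per sample, so the spread between immunoprecipitations and the sequencing depth behind a peak were unknown, and no test between samples was possible. A gene without a peak below is a gene without one in this list.

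Integrins are receptors that span the plasma membrane as a pair of 1 alpha and 1 beta chain and bind matrix proteins or receptors on other cells. Laminins are matrix proteins built of an alpha, a beta and a gamma chain, and they form the network of the basement membrane on which epithelial cells rest. In basal keratinocytes the pair of ITGA6 and ITGB4 anchors the cell to laminin built from LAMA3, LAMB3 and a gamma chain, in a junction called the hemidesmosome, while leukocyte integrins such as those with ITGB2 serve adhesion between blood cells and the vessel wall. ETS1 is a transcription factor that binds DNA with the core letters GGAA.

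An ETS1 peak at the canonical start was counted for most epithelial integrins and for few leukocyte integrins, a difference that narrowed when every annotated start of a gene was used. A peak midpoint lay in the basal window, from 5 kb upstream to 1 kb downstream of the canonical TSS, in 16 of the 37 genes (43.2%, 95% Wilson interval 28.7 to 59.1%), against 56.0% of all protein-coding genes. Of the 11 epithelial integrins 8 had such a peak (72.7%, interval 43.4 to 90.3%), and of the 8 leukocyte integrins 1 had one (12.5%, interval 2.24 to 47.1%). The 2 platelet integrins held 1, the 5 other integrins 0, and the 11 laminins 6 (54.5%, interval 28.0 to 78.7%). These intervals cover the counting of genes only, and the intervals of the epithelial and leukocyte integrins overlapped. Those of the 37 genes and of the epithelial integrins held the 56.0% of all genes. The difference between the sets was not tested. With the same window around any annotated TSS of the gene the count was 23 of 37 (62.2%), near the 60.6% of all protein-coding genes. Under that rule 9 of 11 epithelial integrins, 4 of 8 leukocyte integrins (ITGAD, ITGAE, ITGAM and ITGB2) and 8 of 11 laminins had a peak. The rule gives more windows to genes with more annotated starts, and ITGB1 had 25. For ITGAD and LAMB2 the start nearest the counted peak was that of a transcript with a retained intron. The LAMB2 peak also lay at the start of USP19. A peak covered the base of the canonical TSS itself in 15 of the 37 genes, against 52.3% of all protein-coding genes, and these were 9 of 11 epithelial integrins, 0 of 8 leukocyte integrins and 5 of 11 laminins. With the midpoint required within 500 bp of the canonical TSS the count was 11 of 37 genes against 46.8%, with 6 epithelial integrins, 0 leukocyte integrins and 4 laminins.

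**Figure D1:**
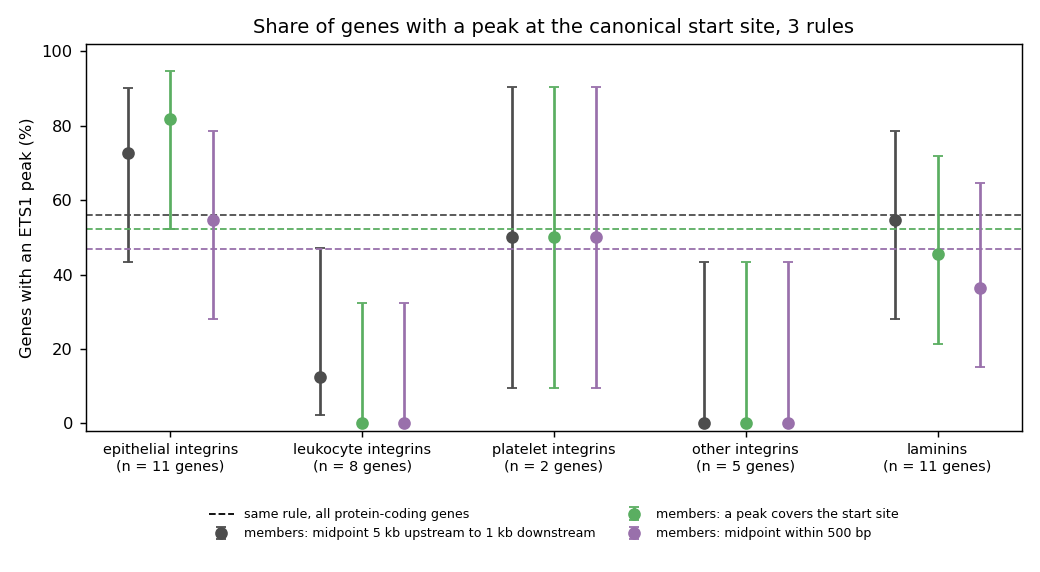
Points give the percentage of genes in each set with an ETS1 peak at the canonical start site under 3 rules, bars the 95% Wilson interval over genes, and dashed lines the share of all protein-coding genes under the same rule. The epithelial integrins sat at 72.7, 81.8 and 54.5%, the leukocyte integrins at 12.5, 0 and 0%.

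Counts over whole genes include the start-site peaks, since 21 of the 60 peaks in bodies lay within 500 bp of a start of one of the 37 genes. A peak lay in the body of 27 of the 37 genes (73.0%), against 54.1% of all protein-coding genes, among them 9 of 11 epithelial integrins, 5 of 8 leukocyte integrins and 8 of 11 laminins, and in the body or within 50 kb of 34 of 37 (91.9%), against 82.6%. Gene length moved with these counts, since the median length was 81.7 kb in the 37 genes and 27.6 kb in all, and its part in them was not tested. Pooled over the bodies, the density was 1.51 peaks per 100 kb in the 37 genes and 1.36 in all protein-coding genes. It was 2.19 in epithelial integrins, 2.65 in leukocyte integrins and 0.869 in laminins, while the median over genes was 2.74 in epithelial and 2.35 in leukocyte integrins, so the order of these sets depended on the summary. Leaving out peaks within 500 bp of any start of their own gene, 15 peaks remained in the bodies of 7 epithelial integrins, 8 in 5 leukocyte integrins and 9 in 7 laminins. Pooled per 100 kb of body, these were 1.27 in epithelial integrins, 1.93 in leukocyte integrins and 0.521 in laminins. The same density over all protein-coding genes was not counted. The genes with no peak in the body or within 50 kb were ITGA4, ITGA8 and ITGA9, whose TSSs lay 199.6, 140.4 and 208.5 kb from the nearest peak.

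**Figure D2:**
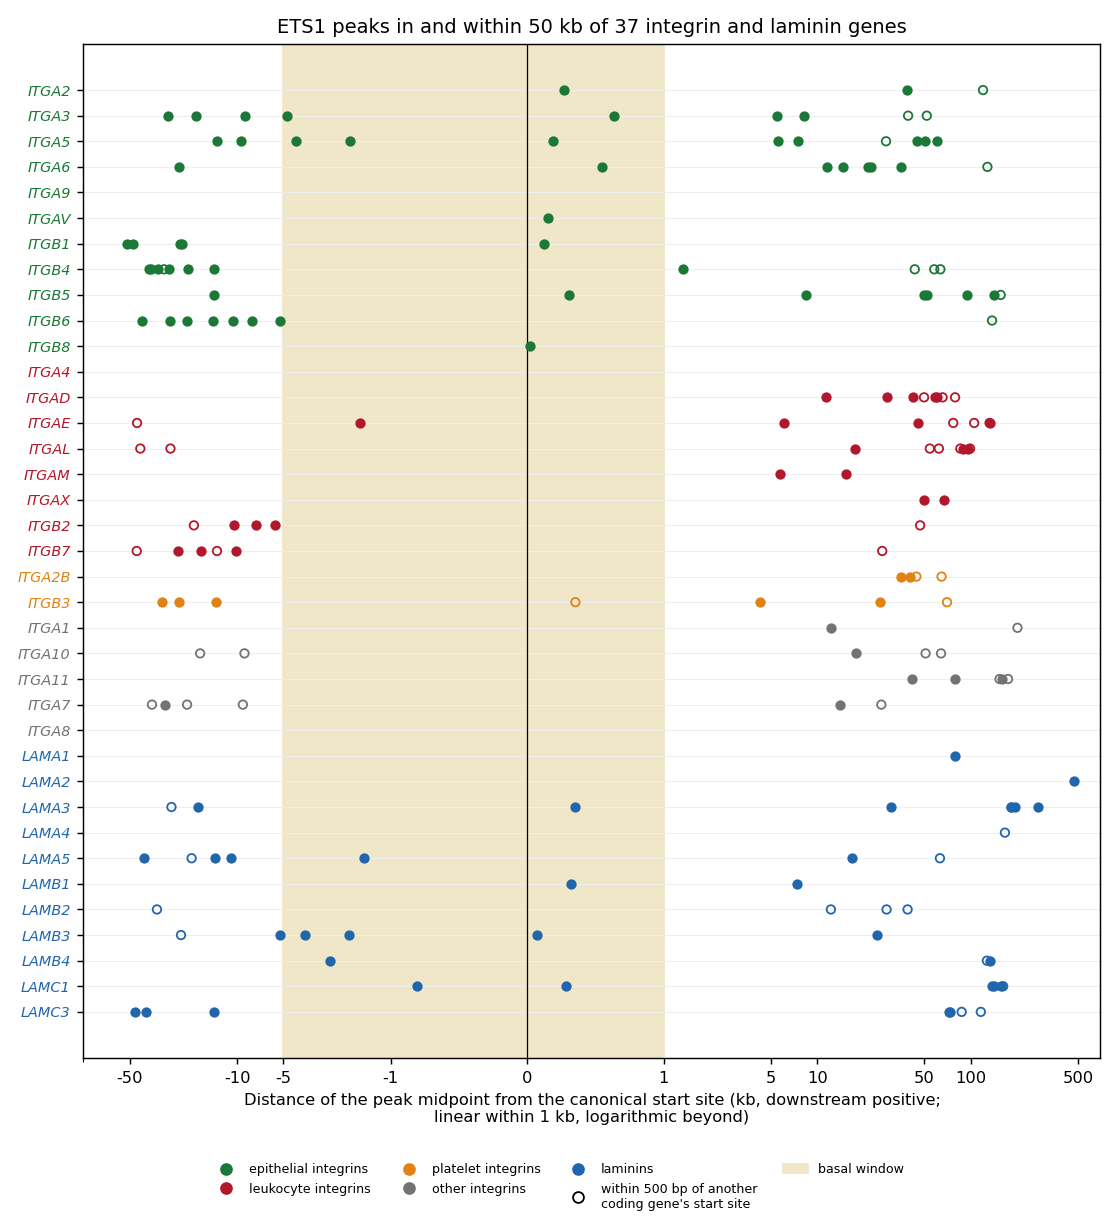
Each point is an ETS1 peak in or within 50 kb of a gene, placed by the distance of its midpoint from the canonical start site, on an axis that is linear within 1 kb and logarithmic beyond. Open points lie within 500 bp of the start site of another protein-coding gene, and the shaded band is the basal window, which held peaks in 8 of 11 epithelial and 1 of 8 leukocyte integrins.

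Among the epithelial alpha chains, ITGA2, which with ITGB1 binds collagen, had a peak 1712 bp wide whose midpoint lay 273 bp downstream of the TSS. The laminin-binding chain ITGA3 had basal peaks 4735 bp upstream and 639 bp downstream, the latter 3649 bp wide and the widest within 500 bp of an annotated TSS of any of the 37 genes. ITGA5, the fibronectin-binding chain, had 3 basal peaks, at 192 bp downstream and at 1832 and 4148 bp upstream. Only 5.58% of all protein-coding genes had at least 2 peaks in this window, and here ITGA3, ITGA5, LAMB3 and LAMC1 did, 4 of 37. ITGAV, the alpha chain shared by several receptors for RGD-containing ligands, had a single peak within 50 kb, at 151 bp downstream of the TSS and 1327 bp wide. ITGA9 was the epithelial integrin with no peak near it, although its start site had the highest CpG observed-to-expected ratio of the 37 genes, 0.926.

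Among the epithelial beta chains, ITGB1, the partner of most alpha chains, had a peak 125 bp downstream of the canonical TSS and 3 further peaks in the part of the gene upstream of the canonical transcript. The farthest of these, 47.5 kb upstream, lay 35 bp from another annotated start of ITGB1. ITGB5 had 8 peaks in or near it, of which 3 lay within 500 bp of an annotated start of the gene, namely the canonical one at 308 bp, one at 8.41 kb downstream and one at 14.1 kb upstream. ITGB8, a partner of ITGAV, had the midpoint closest to the TSS, 23 bp downstream, in a peak of 2579 bp, and no other peak within 50 kb. ITGA6, ITGB4 and ITGB6 are described next.

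ITGA6 (chromosome 2, 173292082 to 173371187, plus strand) had the most peaks in the body of any of the 37 genes, and 6 of 6 lay in intron 1 of the canonical transcript. Their midpoints were at 0.547, 11.6, 14.7, 21.5, 22.4 and 35.0 kb from the TSS. The first was 1891 bp wide and covered the TSS, while the other 5 ranged from 381 to 1393 bp. A further peak lay 24.0 kb upstream, and one at 128.5 kb downstream lay at the start of PDK1. The central 300 bp of each peak were searched on both strands for CCGGAA, for the ETS variant AGGAAG and for the AP-1 letters TGANTCA, where N is any base. TGANTCA occurred in 2 of the 6 intron peaks, and AGGAAG in 3 of them. ITGB4 (chromosome 17, 73717408 to 73753899, plus strand), the beta chain of the hemidesmosome, had its nearest midpoint 1341 bp downstream of the TSS, 341 bp past the edge of the basal window. That peak was 4625 bp wide, ran from 971 bp upstream of the TSS to 3653 bp downstream and so covered the start site, which the midpoint rule did not count. Another 7 peaks lay between 14.2 and 37.7 kb upstream, inside the neighbouring gene SAP30BP, and 3 lay downstream of the gene at the starts of GALK1, H3-3B and UNK. The central 300 bp of the peaks nearest the TSSs of ITGA6 and ITGB4 are shown, both on the plus strand, because these peaks cover the starts of the hemidesmosome pair. The windows are centred 547 and 1341 bp downstream and do not reach the TSS. Neither window held any of the 3 motifs, so neither has capitals. Over their whole extent both peaks held CCGGAA. The first is chr2:173292711-173293010, in intron 1 of ITGA6, and the second chr17:73718730-73719029, in intron 1 of ITGB4, both in hg19.
ITGA6: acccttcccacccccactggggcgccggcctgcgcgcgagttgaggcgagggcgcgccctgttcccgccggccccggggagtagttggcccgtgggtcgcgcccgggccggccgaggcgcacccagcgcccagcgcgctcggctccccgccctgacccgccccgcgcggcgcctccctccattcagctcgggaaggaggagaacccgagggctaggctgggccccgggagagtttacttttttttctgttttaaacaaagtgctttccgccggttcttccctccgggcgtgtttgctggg
ITGB4: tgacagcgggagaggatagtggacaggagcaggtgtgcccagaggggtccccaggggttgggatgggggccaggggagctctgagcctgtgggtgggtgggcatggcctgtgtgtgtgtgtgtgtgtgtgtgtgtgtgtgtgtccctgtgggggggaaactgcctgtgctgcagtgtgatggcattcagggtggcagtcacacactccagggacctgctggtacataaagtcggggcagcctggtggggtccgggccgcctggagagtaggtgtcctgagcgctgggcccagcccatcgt

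ITGB6 (chromosome 2, 160956178 to 161056824, minus strand), which pairs with ITGAV in a receptor that activates TGF-beta, showed another arrangement. It had 0 peaks in its body of 101 kb and 8 within 50 kb, of which 7 lay upstream between 5.26 and 41.6 kb from the TSS. These 7 were over 500 bp from any annotated start, were in no other protein-coding gene, and ranged from 364 to 1767 bp in width. The nearest midpoint lay 257 bp outside the basal window, and the edge of that peak, 982 bp wide, reached into it. TGANTCA was found in the central 300 bp of 4 of the 7, against 31.1% of all peaks over 500 bp from any TSS, and AGGAAG in 5 of the 7, against 47.0%. With 7 peaks of 1 gene these are counts only. The nearest peak, chr2:161061890-161062189 in hg19, lies between genes and is shown on the minus strand, with TGANTCA and AGGAAG matches on either strand in capitals.
ITGB6: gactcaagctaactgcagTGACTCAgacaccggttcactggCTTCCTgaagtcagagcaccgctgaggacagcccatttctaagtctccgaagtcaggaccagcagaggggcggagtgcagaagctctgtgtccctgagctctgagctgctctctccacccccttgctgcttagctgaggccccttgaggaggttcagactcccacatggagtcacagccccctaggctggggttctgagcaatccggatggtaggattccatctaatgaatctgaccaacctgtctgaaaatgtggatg

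The leukocyte integrins had peaks near them, of which a larger share than for epithelial integrins lay at the starts of other genes. Over the 8 genes there were 38 distinct peaks in or within 50 kb, of which 17 (44.7%) lay within 500 bp of another coding gene's TSS and of none of their own, against 11 of 65 (16.9%) for epithelial integrins. The nearest canonical coding TSS belonged to the set itself for 9 of the 38 peaks (23.7%), and for 45 of the 65 (69.2%) around epithelial integrins. Neither share was counted over all protein-coding genes, and the differences were not tested. Of the 26961 nuclear peaks 11686 lay within 500 bp of any TSS, so peaks at starts were common in the whole list. ITGAE, the alpha chain of the receptor that holds T cells to epithelial cadherin, was the one with a basal peak, 660 bp wide and 1594 bp upstream, which also lay inside the adjoining gene NCBP3. It had 3 peaks in the body, of which the one in intron 26 lay at the start of HASPIN. ITGB2, the common beta chain of ITGAL, ITGAM, ITGAX and ITGAD, had 3 peaks in the annotated gene, at 5657, 7501 and 10481 bp upstream of the canonical TSS. The middle one, 2929 bp wide, lay 318 bp from the start of another coding transcript of ITGB2. ITGAM had a peak in intron 8, 233 bp from a further start of its own. Counting any annotated start of the gene within 500 bp, 3 of 8 leukocyte integrins (ITGAE, ITGAM and ITGB2), 8 of 11 epithelial integrins and 16 of 37 genes in all had a peak, against 53.8% of all protein-coding genes.

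ITGAL, with 9 peaks near it, had 1 in its body, 17.7 kb from the TSS in intron 11, and 6 of the 9 lay at the starts of neighbours. ITGAD had 2 peaks in its body, at 11.4 and 28.5 kb, and these same 2 were the peaks counted for ITGAX, whose gene lies 10.3 kb away. ITGB7, which pairs with ITGA4 and ITGAE in homing to the gut, had 6 peaks within 50 kb and 0 in the body, the nearest 10.1 kb upstream inside RARG. ITGA4 had none. The peak of ITGB2 nearest its canonical TSS, chr21:46346321-46346620 in hg19, is shown on the minus strand as an example of a leukocyte integrin site outside the basal window, with TGANTCA in capitals.
ITGB2: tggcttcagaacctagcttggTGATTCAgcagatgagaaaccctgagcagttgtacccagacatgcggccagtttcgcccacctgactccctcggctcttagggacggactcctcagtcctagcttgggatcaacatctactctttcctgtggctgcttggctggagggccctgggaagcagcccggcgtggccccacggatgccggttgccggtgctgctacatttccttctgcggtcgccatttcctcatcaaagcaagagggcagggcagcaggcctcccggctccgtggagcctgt

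Of the platelet pair, ITGB3 had a peak 354 bp downstream of its TSS, 1424 bp wide, and 2 more in the body at 4.24 and 25.6 kb. Its partner ITGA2B, on the same chromosome, had 0 in its body and its nearest peak 35.4 kb away. The basal peak of ITGB3 also lay within 500 bp of the start of an overlapping coding gene model that has no symbol, so the 2 cannot be told apart. Of the other integrins, which are found mainly on mesenchymal or muscle cells, 0 of 5 had a basal peak. ITGA11 had 2 peaks in its introns, at 41.6 and 79.5 kb, and both held AGGAAG and TGANTCA. ITGA1 had 1 at 12.4 kb in intron 1, ITGA7 1 at 14.0 kb in intron 19 and ITGA10 1 at 17.9 kb. The ITGA1 peak also lay inside the coding gene PELO and 312 bp from the start of PELO-AS1.

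Among the laminin alpha chains, LAMA3 and LAMA5, both found in epithelial basement membranes, had basal peaks, while LAMA1, LAMA2 and LAMA4 had none. The LAMA5 peak was 6619 bp wide, with its midpoint 1493 bp upstream and its extent from 4802 bp upstream to 1816 bp downstream, and was the widest of all the peaks near the 37 genes. LAMA1 had 1 peak, 79.2 kb into the gene, and LAMA2 1, at 470.1 kb. The single peak near LAMA4 lay 167 kb from its TSS at the starts of FAM229B and TUBE1. Of the beta chains, LAMB1 had a peak 321 bp downstream, LAMB4 one 2480 bp upstream and LAMB3 3 in the basal window. LAMB2 had none, and 4 of the 4 peaks within 50 kb of it lay at the starts of other coding genes. Of the gamma chains, LAMC1 had peaks at 809 bp upstream and 286 bp downstream, and LAMC3 had its nearest at 14.1 kb upstream.

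LAMB3 (chromosome 1, 209788215 to 209825770, minus strand) had a peak 2498 bp wide with its midpoint 74 bp from the TSS, and a row of 3 upstream at 1.87, 3.61 and 5.24 kb, the last one just outside the window. LAMA3 (chromosome 18, 21269417 to 21536186, plus strand) had 5 peaks in its body of 267 kb. The first, 1936 bp wide, lay 348 bp from the canonical TSS in exon 1, and the second, at 30.4 kb in intron 2, was 317 bp wide. The other 3 fell far inside the gene, in exon 38 at 182 kb, in intron 38 at 184 kb and in intron 41 at 196 kb. The peak in intron 38 was 877 bp wide and its midpoint lay 2 bp from the annotated start of a shorter coding transcript of the gene, and that in intron 41 lay 210 bp from the start of another. Peaks thus lay at both the canonical start of LAMA3 and internal starts, which the count by canonical TSS does not show.

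For LAMA3 the canonical start and the internal start in intron 38 are printed, the latter as the peak of the gene closest to an annotated start. The 267 coding bases around the canonical midpoint, chr18:21269648-21269914, held none of the 3 motifs. The 148 bases of intron 38 that end at the internal start, chr18:21452836-21452983, held 3 matches to AGGAAG and 2 to TGANTCA, counted on both strands. The peak in intron 41, at the other internal start, held none of the 3 motifs in its central 300 bp, as at the canonical start. LAMB3 is represented by the 75 bases before its TSS, chr1:209825771-209825845 on the minus strand, and these hold no match, but the central 300 bp of the same peak held AGGAAG outside them. At the canonical start of LAMA3 the bases before the coding sequence were left out. At the internal start and for LAMB3 the bases from the start onward were left out, which for LAMB3 include part of intron 1. LAMA3 is on the plus strand, and capitals mark AGGAAG and TGANTCA in either orientation. The internal window was chosen after its values were seen.
LAMA3 canonical start: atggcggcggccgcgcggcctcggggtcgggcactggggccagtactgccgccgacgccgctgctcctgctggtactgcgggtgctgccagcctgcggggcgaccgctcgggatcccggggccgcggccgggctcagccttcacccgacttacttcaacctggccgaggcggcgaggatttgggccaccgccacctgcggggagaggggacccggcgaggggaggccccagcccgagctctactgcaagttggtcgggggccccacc
LAMA3 internal start: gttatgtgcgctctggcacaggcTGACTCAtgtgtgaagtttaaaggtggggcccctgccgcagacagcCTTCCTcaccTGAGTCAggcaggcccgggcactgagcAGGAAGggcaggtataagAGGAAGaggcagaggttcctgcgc
LAMB3: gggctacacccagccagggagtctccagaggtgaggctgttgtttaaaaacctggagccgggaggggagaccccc

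**Figure D3:**
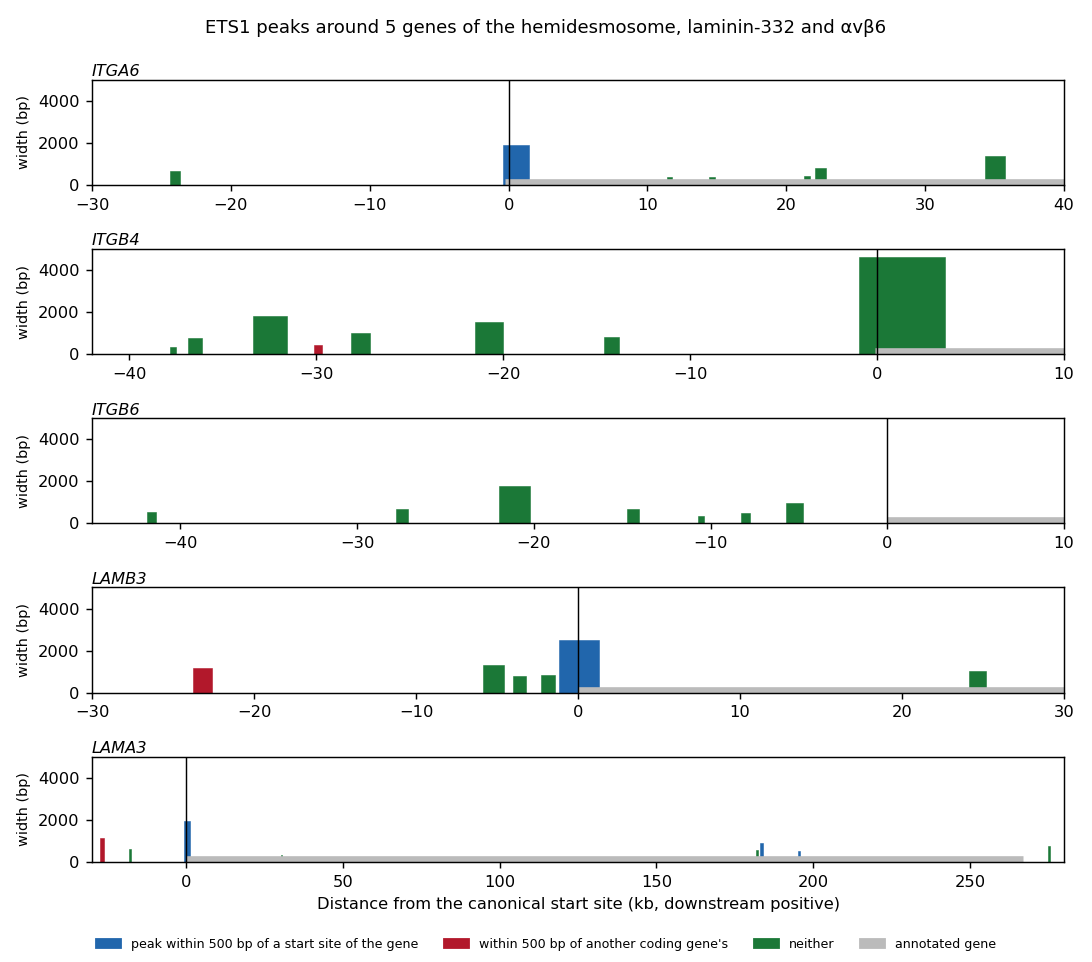
Bars show ETS1 peaks along 5 genes at their true extent on the horizontal axis, in kb from the canonical start site, with the height giving the peak width in bp. A wide peak covered the canonical start site of ITGA6, ITGB4, LAMB3 and LAMA3, with a width of 4625 bp in ITGB4, whereas ITGB6 had a row of 7 narrower upstream peaks.

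CpG content moved with these differences. A start site was called CpG-rich when the 1000 bp around it had at least 50% G and C and an observed-to-expected CpG ratio of at least 0.6. Of all genes with such a start 74.2% had a basal peak, against 21.8% of the rest. Of the 37 genes, 20 had a CpG-rich start and 12 of these a basal peak, while 4 of the other 17 did. Within the classes, 7 of 9 epithelial integrins with a CpG-rich start and 1 of 7 leukocyte integrins with another start had one, both near the share of all genes in that class. The CpG-rich starts included 9 of 11 epithelial integrins, 1 of 8 leukocyte integrins and 6 of 11 laminins, and the median ratios were 0.844, 0.182 and 0.782, against 0.726 over all protein-coding genes. The one leukocyte integrin with a CpG-rich start, ITGA4, had no peak, and with it the CpG-rich genes without a basal peak were ITGA1, ITGA7, ITGA8, ITGA9, ITGB4, LAMA1 and LAMC3. Basal peaks at starts that were not CpG-rich were those of ITGA5, ITGAE, LAMB3 and LAMB4. The part of CpG content in the difference between epithelial and leukocyte integrins was not tested, and with 1 leukocyte gene in the CpG-rich class the 2 cannot be told apart here.

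**Figure D4:**
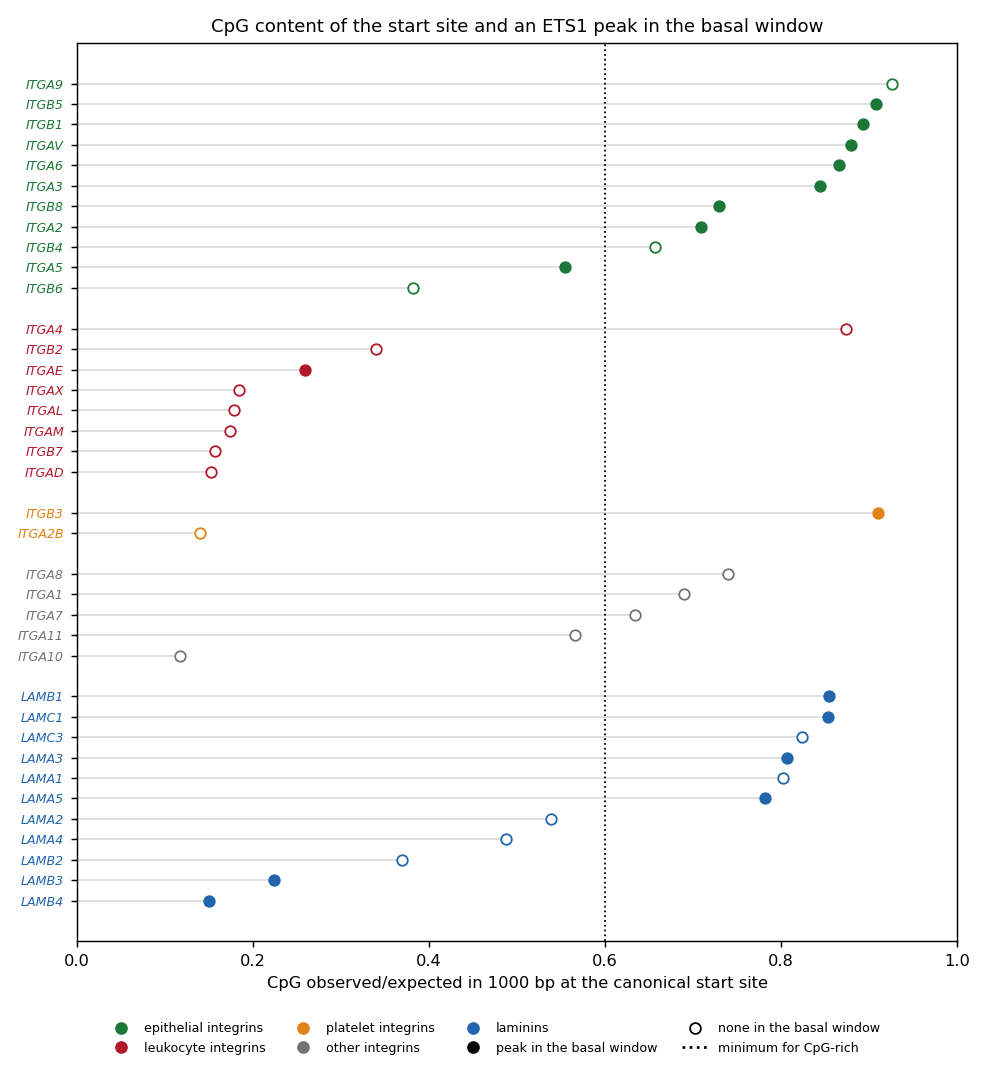
The CpG observed-to-expected ratio in 1000 bp at the canonical start site is shown for each of the 37 genes, filled where an ETS1 peak lay in the basal window. Apart from ITGA4 at 0.873, the leukocyte integrins sat between 0.152 and 0.340, below the dotted line at 0.6.

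The peaks at the starts of these genes lay mostly just downstream of the TSS. Of 14 midpoints within 1 kb of a canonical TSS 13 were downstream (92.9%), at 23 to 639 bp with a median of 286 bp, and the exception was the peak of LAMC1 at 809 bp upstream. Over all protein-coding genes 59.7% of 10611 such midpoints were downstream. The difference was not tested. The 22 peaks within 500 bp of any annotated start of the 37 genes had a median width of 1632 bp, and 15 of them exceeded 1262 bp, the median of the 11686 peaks within 500 bp of any TSS. Of the 22, the 13 that covered the canonical TSS were 1327 to 3649 bp wide with a median of 1891 bp, and the 9 at other starts of the genes were 535 to 2929 bp wide with a median of 823 bp. Width is the extent called by the authors and not a signal strength.

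Over the 37 genes 175 distinct peaks were counted in the bodies or within 50 kb, 60 of them in a body and 5 counted for a pair of neighbouring members. Of the 60 in a body, 45 lay in an intron of the canonical transcript, 18 of these in intron 1. Of the 175, 22 lay within 500 bp of a start of one of the 37 genes, 53 at the start of another protein-coding gene only, 8 at a noncoding start only and 92 over 500 bp from any start. A peak within 50 kb is therefore not a peak assigned to the gene, and the nearest canonical coding TSS was one of the 37 for 73 of 175.

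Over all of these peaks the same 3 motifs were counted in 300 bp centred on each midpoint, beside the ETS core GGAA, which CCGGAA contains and which AGGAAG contains as well. GGAA was found in 168 of the 175 peaks (96.0%) and in 96.3% of all nuclear peaks. CCGGAA was found in 21 of 175 (12.0%, Wilson interval 7.98 to 17.6%), against 16.3% of all nuclear peaks, AGGAAG in 87 (49.7%), against 41.3%, and TGANTCA in 36 (20.6%), against 20.5%. At the starts of the 37 genes CCGGAA was found in 1 of 22 peaks (4.55%, interval 0.807 to 21.8%), against 25.3% of all peaks within 500 bp of a TSS. That one was the peak at the upstream start of ITGB5. AGGAAG was found there in 8 of 22, against 33.8%, and TGANTCA in 3 of 22, against 6.73%. The 3 were the peaks at non-canonical starts of ITGB1, ITGB5 and LAMA3, and 0 of the 13 of these peaks that covered a canonical TSS held CCGGAA or TGANTCA in the 300 bp. These counts rose with a wider window, and the reason for the low CCGGAA count was not tested. In 600 bp CCGGAA was found in 4 of the 22, against 40.3% of all peaks within 500 bp of a TSS, and over the whole peak in 11 of 22, against 58.0%. The share of the 22 with CCGGAA thus stayed below that of all such peaks in the wider windows. This did not hold for the 13 alone over the whole peak, where 8 held CCGGAA and 3 held TGANTCA. Of the 9 peaks at other starts 3 held CCGGAA over the whole peak. Away from all starts, CCGGAA was found in 6 of 92 peaks (6.52%), against 9.49%, AGGAAG in 51 (55.4%), against 47.0%, and TGANTCA in 23 (25%), against 31.1%. A match describes these letters and is not a binding site, and no difference from the background was tested.

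Read by receptor, both chains had a basal peak in 8 of 24 known integrin pairs, a single chain in 11 and neither in 5. The pairs with both were ITGB1 with ITGA2, ITGA3, ITGA5, ITGA6 or ITGAV, and ITGAV with ITGB3, ITGB5 or ITGB8. In the pair of ITGA6 and ITGB4 and in that of ITGAV and ITGB6 the alpha chain alone was counted, although a peak covered the TSS of ITGB4. The pairs with neither were the 4 of ITGB2 and that of ITGA4 and ITGB7. ITGB1 accounted for 12 of the 24 pairs, so these counts repeat its peak. ITGAV recurs among the pairs as well, so its single basal peak is also repeated. Singly, 56.0% of all protein-coding genes had a basal peak, and no share over pairs of other genes was counted. The pair counts therefore do not set the members apart from other genes.

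The proteins that integrins and laminins work with had a basal peak in 27 of 32 genes of a list chosen by role (84.4%, interval 68.2 to 93.1%), against 56.0% of all protein-coding genes. That list was made with earlier results of these data known, and the difference was not tested. The gap was smaller with a midpoint within 500 bp of the canonical TSS, 18 of 32 (56.25%) against 46.8%. A peak covered the canonical TSS in 24 of 32 (75%), against 52.3%. Of the hemidesmosome genes 4 of 4 had a basal peak. These were PLEC and DST, which tie the junction to keratin filaments, the collagen COL17A1 and the tetraspanin CD151. PLEC had 6 peaks in its body and COL17A1 a midpoint 361 bp from its TSS. Of the 6 genes that link laminin to cells or to other matrix, BCAM, DAG1, HSPG2 and NID1 had a basal peak. NID2 had its nearest peak 79.4 kb away and AGRN at 1239 bp. Of the 22 cytoplasmic adaptors 19 had a basal peak. Among them were ILK at 136 bp, the focal adhesion kinase PTK2 at 3 bp and the kindlin FERMT1 at 49 bp. FERMT3, the kindlin of blood cells, also had one, 537 bp from its TSS. LIMS2, TNS1 and TNS4 had none, although TNS1 held 7 peaks and TNS4 6 in the body. TNS3 held 13, the most of the list.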

How the data were processed

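Processing of the sequence reads was done by the authors. Per the labels and the submitters' processing notes the reads were aligned with Bowtie 1.1.1 to hg19 and handled with SAMtools 1.3, and peaks shared by the 3 immunoprecipitations were kept by the irreproducible discovery rate. The deposited list is in hg19 coordinates, pooled over the samples, and holds no score, count or signal, so no depth per sample and no replicate error could be given.

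From it, peak midpoints were placed against GENCODE release 44 lifted to GRCh37, in Python 3.11.15 with pandas 2.3.3 and pysam 0.24.0. The 9 mitochondrial peaks were left out. The gene, its canonical TSS, a basal window of 5 kb upstream to 1 kb downstream, the body and a flank of 50 kb were used, and a script tested on simulated data counted the peaks. Shares carry 95% Wilson intervals, which cover counting only. Motifs were counted in 300 bp on both strands of the GRCh37 sequence. No test was run.

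All 37 members are named. Described in full were the chains of the hemidesmosome and of the epidermal laminin among them, the members of each set with most peaks in the body, leukocyte integrins with a basal peak and epithelial ones without. Genes that are no members were named where their TSS lay within 500 bp of a counted peak or where they belong to the list of partner proteins. SAP30BP, NCBP3, RARG and PELO were named as hosts of peaks after the values were seen. The members and lists were chosen with earlier results of these data known, and the list of integrin pairs was written after the values were seen. Alternatives in the peak base used, the TSS, the window, the flank, the motif window and the part of the list were tried.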

Additional observations from a re-analysis of the deposited data

How the results depend on the processing

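Counts of genes with a peak in the body (20 to 28 against 27) or in the body or within 50 kb (30 to 34 against 34) stayed within 1.5 times of the reported value under every alternative tried for them. So did the counts of basal-window peaks in laminins (4 to 8 against 6).

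With the first 13485 peaks of the list alone, whose order is not explained in the sources used here, basal peaks were found in 9 of the 37 genes, 5 epithelial integrins, 0 leukocyte integrins and 17 of the 32 partner genes, against 36.4% of all protein-coding genes, and distinct peaks fell to 101. With any annotated TSS the count was 23 of 37 genes, 9 epithelial and 4 leukocyte integrins, against 60.6% of all genes. The leukocyte count of 1 became 0 and the epithelial count 6 within 500 bp (all genes 46.8%), 0 and 9 within 1500 bp (54.2%), 0 and 9 with a peak covering the TSS (52.3%), and 0 and 8 with peaks at or above the median width (43.5%). With an overlap of 1 bp they were 1 and 10 (57.2%). Distinct peaks numbered 99 with peaks at or above the median width and 89 with a flank of 10 kb. Peaks with CCGGAA numbered 13 in 200 bp, 33 in 600 bp and 53 over the whole peak, where all nuclear peaks gave 11.9, 26.0 and 37.4%. At the starts of the 37 genes the count of 1 became 4 in 600 bp and 11 over the whole peak. A smaller list, window or flank holds fewer peaks by construction, and no other cause was tested. The covered-TSS rule, the motif windows at the starts and the settings for the partner genes were chosen after seeing the data.

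No paired analysis was possible because the single list pools the samples. For the same reason no sample was left out in turn, and the 175 peaks were not ranked by depth or score.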
